A study of Homo sapiens with 9 samples.

Results

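HCT116 cells, a human colorectal carcinoma line that carries mutant CTNNB1, were examined here for 46 genes of the Wnt pathway and of intestinal stem cells. The members were chosen by gene name, as pathway components, known Wnt targets and stem cell markers. The choice rule used no measured value, but it was made with earlier results of these data known, so the choice was not independent of the data. Of the 46 listed genes, 44 were among the 35817 genes with counts (ASCL2 and OLFM4 were not analysed here), and 39 of the 44 had enough counts to be tested. RNA-seq had been performed after silencing of the long non-coding RNA LINC00857, to ask which genes change when it is depleted. The cells received LINC00857 siRNA1, LINC00857 siRNA2 or a negative control siRNA (NC), giving 9 libraries, 3 per group. All groups were the same line, grown in McCoy's 5A medium with bovine serum and transfected with Lipofectamine RNAiMax, without any labelled time point. Both siRNA groups share the same NC libraries, and one tumour line is a limited model of intestinal epithelium.

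Canonical Wnt signalling is controlled by how long β-catenin, the product of CTNNB1, survives. Without a ligand, a destruction complex built on APC, AXIN and GSK3 marks β-catenin for degradation, and frizzled and LRP receptors occupied by a Wnt protein switch that complex off through dishevelled. Stabilised β-catenin then joins TCF and LEF proteins on DNA and activates targets, several of which are inhibitors that feed back on the pathway. At the base of the intestinal crypt this signal maintains the stem cells marked by LGR5, and in most colorectal tumours it is switched on by mutation of APC or CTNNB1.

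TCF and LEF proteins recognise a short word in DNA, and promoters of 3 members that hold it are shown because the results below turn on them or on their role as targets. The words searched were CTTTGAA and CTTTGAT on both strands (TTCAAAG and ATCAAAG where read on the other strand), in windows of 250 bases before to 50 bases after RefSeq transcript starts (GRCh38.p14). They are printed in capitals. DKK1 encodes a secreted Wnt inhibitor, SP5 a transcription factor directly induced by β-catenin, and DCLK1 a kinase used as a marker of tuft cells and of some tumour stem cells. The DCLK1 window belongs to an internal start, 1 of its 3 starts in RefSeq, and lies inside the gene (13:35768652-36131306 in GENCODE, GRCh38).
DKK1, chr10:52314031-52314330, plus strand: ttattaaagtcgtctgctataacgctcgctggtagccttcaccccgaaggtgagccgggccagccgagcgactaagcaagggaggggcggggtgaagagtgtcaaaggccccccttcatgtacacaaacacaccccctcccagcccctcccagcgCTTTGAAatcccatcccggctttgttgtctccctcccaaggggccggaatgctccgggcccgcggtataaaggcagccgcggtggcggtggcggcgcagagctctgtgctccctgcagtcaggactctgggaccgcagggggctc
SP5, chr2:170715087-170715386, plus strand: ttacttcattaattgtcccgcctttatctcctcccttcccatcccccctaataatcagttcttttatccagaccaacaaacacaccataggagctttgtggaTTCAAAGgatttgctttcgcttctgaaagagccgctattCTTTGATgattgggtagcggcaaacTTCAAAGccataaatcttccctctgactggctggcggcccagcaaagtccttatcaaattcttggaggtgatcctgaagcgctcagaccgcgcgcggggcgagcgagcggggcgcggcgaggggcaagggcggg
DCLK1, chr13:35855618-35855917, minus strand: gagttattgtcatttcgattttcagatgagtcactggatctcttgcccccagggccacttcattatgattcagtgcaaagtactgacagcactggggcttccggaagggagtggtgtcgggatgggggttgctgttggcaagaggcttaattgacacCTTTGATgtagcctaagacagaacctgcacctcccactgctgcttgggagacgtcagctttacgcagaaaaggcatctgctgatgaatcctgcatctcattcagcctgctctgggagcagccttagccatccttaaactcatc
The first base of the word lay 95 bases before the start of DKK1 and 93 bases before the internal start of DCLK1. SP5 held 3 words, 148, 109 and 84 bases before its start. PROM1, which encodes the surface protein CD133, held 1 word at 1 of its 4 starts. RefSeq windows were found for 31 of the 46 members. AXIN2, NKD1, NOTUM, ZNRF3, LGR5, SOX9 and ASCL2 were among the members without a window, and so were not searched. Of the 46 windows found for members, 4 (8.7%) held a word, against 2409 of all 35116 windows (6.9%). These matches describe the letters in the windows, and neither binding nor use of a given start was measured.

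The libraries held 51411860 to 57815092 gene counts each, and mitochondrial genes took 9.02% to 10.2% of them. LINC00857 had 201, 229 and 207 normalised counts with siRNA1 and 179, 178 and 243 with siRNA2, against 518, 423 and 505 in NC. A normalised count is a count scaled to the average library after correction for composition. By edgeR's quasi-likelihood test, LINC00857 fell by 1.18 on the log2 scale with siRNA1 (SE 0.17, adjusted p = 0.000292) and by 1.27 with siRNA2 (SE 0.17, adjusted p = 0.000109), and all 6 siRNA libraries lay below all 3 NC libraries. The epithelial markers fixed for this line summed to 3570 to 4070 CPM (counts scaled to a common library total) with siRNA1 and 3890 to 4030 with siRNA2, against 3580 to 3780 in NC, with 7 of 11 measured markers tested and CDX1, CEACAM5, VIL1 and LGALS4 close to 0. Fibroblast markers, 3 of 8 tested, summed to 58 to 64.3 CPM with siRNA1 and 27.2 to 30.5 with siRNA2, against 34.1 to 42.0 in NC, mostly from COL1A1, and their part in the results was not tested. Immune and endothelial markers summed to at most 12.3 CPM. In RNA from whole cultures, fewer cells with a transcript and less transcript per cell cannot be told apart.

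LINC00857 siRNA1 was followed by higher RNA of 7 members and lower RNA of 6 among the 39 tested, at an adjusted p below 0.05 over all genes. With siRNA2, 12 members were higher and 9 were lower than in NC. The gains with siRNA1 were AXIN1, LRP6, NKD1, NOTUM, DKK1, DCLK1 and BMI1, and the losses were CTNNB1, TCF7L2, FZD5, PORCN, DVL2 and CD44. The gains with siRNA2 were TCF7L1, AXIN1, GSK3B, FZD3, LRP6, WLS, DVL1, RNF43, DKK1, EPHB2, CD44 and MEX3A, and the losses were CTNNB1, TCF7L2, FZD5, DVL3, NKD1, NOTUM, EPHB3, DCLK1 and BMI1. The median log2 change of the tested members was -0.04 with siRNA1 and -0.09 with siRNA2, against 0.01 and 0.00 over all 21130 genes tested.

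Those counts were read against the background of the whole transcriptome. With siRNA1, 10.8% of all tested genes were higher and 10.5% lower than in NC, and with siRNA2 13.8% were higher and 13.9% lower. Most members were well expressed, and among genes with a mean of at least 50 normalised counts the background was 14.7% higher and 14.5% lower with siRNA1, where 18.4% and 15.8% of the 38 members at that level were called. With siRNA2 the same background was 18.8% in either direction, against 31.6% of members higher and 23.7% lower. The siRNA1 shares therefore lay near the background, and the siRNA2 share of higher members lay above it as a description without a test. The number of members higher with siRNA1 was 4 in place of 7 when siRNA1 replicate 2 or NC replicate 3 was left out.

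**Figure D1:**
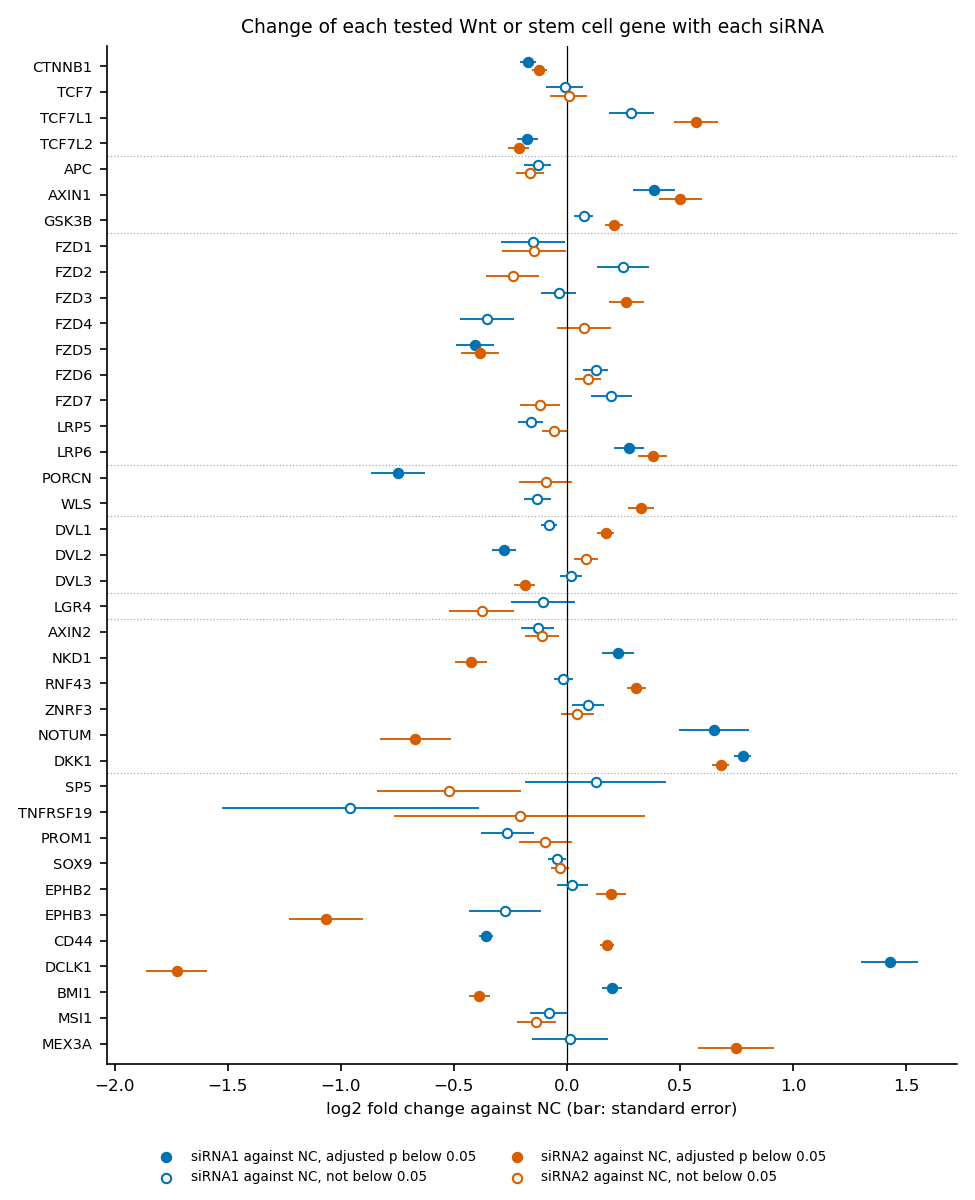
Log2 fold change (horizontal axis) of the 39 tested members with siRNA1 (blue) and siRNA2 (orange) against NC, in order of role, with standard errors as bars and filled points for an adjusted p below 0.05 (n = 3 libraries per group). DCLK1 has the widest separation, at 1.43 with siRNA1 and -1.73 with siRNA2, while DKK1 lies at 0.78 and 0.68.

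Levels of the members were compared per kilobase of annotated exon, as normalised CPM per kilobase, so that genes of different length could be ordered. DKK1 was the most abundant member, at 137 ± 5.30 with siRNA1 and 128 ± 4.09 with siRNA2, against 80.1 ± 1.27 in NC (SD, n = 3 each). In NC it was followed by CD44, a hyaluronan receptor, at 52.2 ± 0.61, and then by DVL1 at 40.3 ± 0.88 and SOX9 at 40.0 ± 1.15, which did not differ beyond their spread. CTNNB1 came next at 28.7 ± 0.23 in NC. At the lower end were DCLK1 at 0.52 ± 0.07 and TNFRSF19, a TNF receptor family member, at 0.12 ± 0.07 in NC. Long alternative exons in the annotation (14375 exon bases for DCLK1, 17425 for NKD1) lower this measure for some genes.

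**Figure D2:**
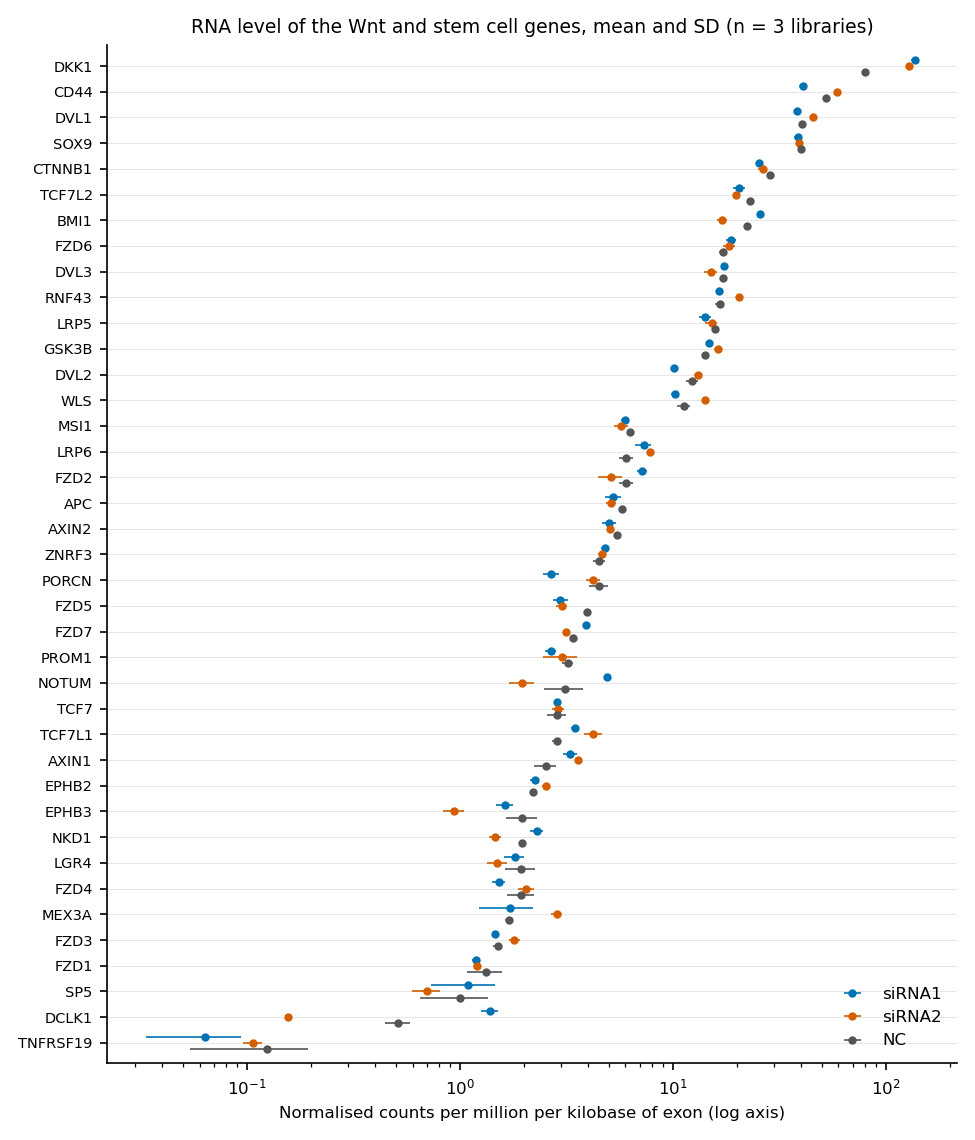
RNA level (horizontal log axis, normalised CPM per kilobase of exon) of the 39 tested members, ordered by their NC level, with points for the mean and bars for the SD of 3 libraries in siRNA1, siRNA2 and NC. DKK1 is highest in all groups, and DCLK1 near the bottom shows the widest gap between groups, at 1.39 with siRNA1 and 0.16 with siRNA2, against 0.52 in NC.

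Of the 44 members with counts, 5 were close to 0 in this line, among them the crypt stem cell markers LGR5 and SMOC2. Other stem and progenitor cell markers differed widely in level. Mean normalised counts were 8539 for SOX9, 5123 for BMI1, 1609 for EPHB2 and 1021 for MSI1. Lower means were found for DCLK1 at 544, EPHB3 at 378 and TNFRSF19 at 27.7. LGR5, the R-spondin receptor that marks active crypt stem cells, had 0, 3 and 25 counts with siRNA1 and 0, 9 and 0 with siRNA2, against 2, 7 and 0 in NC. One siRNA1 library thus gave most of the LGR5 counts, and the groups overlapped. LEF1, the TCF-family factor, PROX1, a homeobox factor, SMOC2, a secreted matrix protein, and TDGF1, a Nodal co-receptor, also averaged under 10 counts and were not tested. A count of 0 allows up to 3 counts in a library, which is 0.0519 to 0.0584 CPM and covers counting error only.

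Among the nuclear effectors, CTNNB1 and TCF7L2, the principal TCF of intestinal epithelium, were lower with either siRNA, and TCF7L1, a TCF that mostly represses, was higher with siRNA2. CTNNB1 had 16914, 16506.5 and 16900.4 normalised counts with siRNA1 and 17634, 16526 and 17994 with siRNA2, against 18958, 19042 and 18752 in NC. All 6 siRNA libraries lay below all 3 NC libraries. The log2 change was -0.17 with siRNA1 and -0.12 with siRNA2 by edgeR's quasi-likelihood test (SE 0.04 each, adjusted p = 0.00293 and 0.0182), and the second call was lost without siRNA2 replicate 2, NC replicate 1 or NC replicate 2, with adjusted p up to 0.0809. TCF7L2 fell by 0.21 with siRNA2 (adjusted p = 0.00371) and its log2 change with siRNA1 was -0.175 (adjusted p = 0.0162).

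TCF7L1 had 881, 810.5 and 851 normalised counts with siRNA1 and 921, 1062 and 1116 with siRNA2, against 669, 734 and 684 in NC. The NC libraries were lowest, without overlap with either siRNA group. TCF7L1 rose by 0.57 with siRNA2 (SE 0.10, adjusted p = 0.000718, edgeR's quasi-likelihood test), while 0.28 with siRNA1 missed the threshold (SE 0.10, adjusted p = 0.0590), and passed it under DESeq2, upper quartile scaling or with protein-coding genes alone. TCF7, a further TCF, was at -0.01 and 0.01 with SE of 0.08.

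In the destruction complex AXIN1, its scaffold, was higher with both siRNAs. AXIN1 had 1376, 1461 and 1254 normalised counts with siRNA1 and 1507.5, 1427 and 1502 with siRNA2, against 1174, 1022 and 940.1 in NC. Every siRNA library exceeded every NC library. The log2 change was 0.38 with siRNA1 and 0.50 with siRNA2 by edgeR's quasi-likelihood test (SE 0.09 each, adjusted p = 0.0101 and 0.00126), and the siRNA1 call was lost without siRNA1 replicate 2 or NC replicate 3 (adjusted p up to 0.0563). GSK3B, a kinase that phosphorylates β-catenin, rose by 0.21 with siRNA2 (adjusted p = 0.00208) and was at 0.07 with siRNA1 (adjusted p = 0.267). APC, the tumour suppressor of the complex, was at -0.13 with siRNA1 and -0.16 with siRNA2 and passed in neither comparison. It passed with siRNA1 when siRNA1 replicate 3 was left out (adjusted p 0.0281 to 0.443 over the alternatives), and with siRNA2 under 5 alternatives, 2 of them without siRNA1 replicate 1 or 3 (0.0219 to 0.226).

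Of the 9 frizzled and LRP receptors tested, 1 rose and 1 fell with siRNA1 (11.1% each). With siRNA2, 2 rose and 1 fell (22.2% and 11.1%). Of all tested genes, 10.8% rose and 10.5% fell with siRNA1, and 13.8% and 13.9% with siRNA2. The receptor shares with siRNA1 thus lay near the background, and those with siRNA2 rest on few genes. FZD5, a Wnt receptor of the intestinal epithelium, fell by 0.41 with siRNA1 (SE 0.08, adjusted p = 0.00344) and by 0.39 with siRNA2 (SE 0.08, adjusted p = 0.00346, edgeR's quasi-likelihood test). The co-receptor LRP6 rose by 0.27 with siRNA1 (SE 0.07, adjusted p = 0.00854) and by 0.38 with siRNA2 (SE 0.07, adjusted p = 0.000668). The siRNA1 call of LRP6 was lost without siRNA1 replicate 2, NC replicate 1 or NC replicate 2 (adjusted p up to 0.0533). FZD3, a frizzled best known from axon guidance, rose by 0.26 with siRNA2 (adjusted p = 0.0221), a call lost without siRNA2 replicate 1, siRNA2 replicate 2, NC replicate 1 or NC replicate 2 (adjusted p up to 0.0961).

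Per kilobase in NC, FZD6 was the most abundant frizzled at 17.3 ± 0.74, followed by FZD2 at 6.03 ± 0.46, FZD5 at 3.94 ± 0.07 and FZD7 at 3.42 ± 0.05. FZD4 at 1.94 ± 0.28, FZD3 at 1.51 ± 0.07 and FZD1 at 1.33 ± 0.25 were lowest, and FZD3 and FZD1 did not differ beyond their spread. FZD1, FZD2, FZD4, FZD6 and FZD7 passed in neither comparison with NC, with log2 changes between -0.35 (FZD4, siRNA1) and 0.25 (FZD2, siRNA1). FZD4 with siRNA1 passed under 4 alternatives, 1 of them without NC replicate 2 (adjusted p 0.0244 to 0.227). LRP5, the other LRP co-receptor, was at -0.16 with siRNA1 (SE 0.055, adjusted p = 0.0561 by edgeR's quasi-likelihood test) and was at -0.06 with siRNA2, and the siRNA1 value passed under 8 alternatives, 3 of them without siRNA1 replicate 3, siRNA2 replicate 2 or siRNA2 replicate 3. FZD4 shares 18.9% of its exon bases with PRSS23 on the opposite strand, and no source used here gives the strand setting of the counting.

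Wnt ligands leave the producing cell after PORCN adds a lipid and WLS carries them to the surface, and each siRNA changed a different one of these genes relative to NC. PORCN had 490.3, 416.5 and 432 normalised counts with siRNA1 and 762, 668 and 677 with siRNA2, against 834, 685.5 and 729.5 in NC. The siRNA1 libraries lay below all others, and the siRNA2 and NC libraries overlapped. PORCN fell by 0.75 with siRNA1 (SE 0.12, adjusted p = 0.000552) and was at -0.09 with siRNA2 (SE 0.12, adjusted p = 0.637, edgeR's quasi-likelihood test). WLS rose by 0.33 with siRNA2 (SE 0.06, adjusted p = 0.000966) and was at -0.13 with siRNA1 (SE 0.06, adjusted p = 0.147, or 0.035 without NC replicate 1, the lowest of the alternatives, which reached 0.367). Both differences between the siRNAs passed, at -0.65 for PORCN (adjusted p = 0.000931) and -0.46 for WLS (adjusted p = 5.69e-05), siRNA1 minus siRNA2.

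The 3 dishevelled genes, whose products relay the receptor signal, did not move as a group. DVL2 fell by 0.28 with siRNA1 (SE 0.05, adjusted p = 0.00258, edgeR's quasi-likelihood test). With siRNA2, DVL1 rose by 0.17 (SE 0.04, adjusted p = 0.00287) and DVL3 fell by 0.19 (SE 0.05, adjusted p = 0.00951). The R-spondin receptor LGR4 was at -0.11 with siRNA1 (SE 0.14) and -0.38 with siRNA2 (SE 0.14, adjusted p = 0.0674), and passed in neither comparison. The siRNA2 value passed under DESeq2, with protein-coding genes alone and without NC replicate 2 (adjusted p 0.0282 to 0.274 over the alternatives).

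The feedback inhibitors, which β-catenin induces and which restrain the pathway, moved apart from one another. DKK1, which blocks LRP co-receptors, rose with both siRNAs, and NOTUM, which removes the lipid from Wnt proteins, and NKD1, which binds dishevelled, rose with siRNA1 and fell with siRNA2. With siRNA1, 3 of 6 rose (50%) and 3 did not pass. With siRNA2, 2 rose (DKK1 and RNF43), 2 fell (NKD1 and NOTUM), 33.3% each, and 2 did not pass. Of all tested genes, 10.8% rose and 10.5% fell with siRNA1, and 13.8% and 13.9% with siRNA2. At a mean of at least 50 normalised counts these were 14.7% and 14.5% with siRNA1, and 18.8% in either direction with siRNA2. This list of 6 genes was not tested as a set.

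DKK1 had 17438.5, 16305 and 16338 normalised counts with siRNA1 and 15451, 15224 and 16176 with siRNA2, against 9723, 9919 and 9613 in NC. All siRNA libraries stood far above the NC libraries, which varied little. By edgeR's quasi-likelihood test DKK1 rose by 0.78 with siRNA1 (SE 0.04, adjusted p = 2.16e-08) and by 0.68 with siRNA2 (SE 0.04, adjusted p = 3.68e-08). The difference between the siRNAs was 0.10 (SE 0.04, adjusted p = 0.0693), which passed under DESeq2, limma-voom and upper quartile scaling (adjusted p 0.0388 to 0.292 over the alternatives). PRKG1-AS1, on the opposite strand, shares 9.6% of the DKK1 exon bases and averaged 97.1 counts.

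AXIN2, the most widely used readout of β-catenin activity, had 1519, 1509 and 1319 normalised counts with siRNA1 and 1489, 1469 and 1448 with siRNA2, against 1566, 1546 and 1646 in NC. The NC libraries were all above the siRNA libraries, by a small margin. The log2 change was -0.13 with siRNA1 (SE 0.07, adjusted p = 0.266) and -0.11 with siRNA2 (SE 0.07, adjusted p = 0.322, edgeR's quasi-likelihood test), and neither passed under any of the 18 alternatives. AC004805.1, on the same strand, shares 25.2% of the AXIN2 exon bases and averaged 4.8 counts.

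NOTUM had 803, 810.5 and 848 normalised counts with siRNA1 and 366, 339 and 279 with siRNA2, against 631, 527 and 410.2 in NC. The 3 groups did not overlap, with NC in the middle. NOTUM rose by 0.65 with siRNA1 (SE 0.16, adjusted p = 0.00886) and fell by 0.67 with siRNA2 (SE 0.16, adjusted p = 0.00611, edgeR's quasi-likelihood test).

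NKD1 had 2041.5, 2298 and 2305 normalised counts with siRNA1 and 1480, 1443 and 1309 with siRNA2, against 1895, 1861 and 1924 in NC. Here too NC lay between the siRNA groups. NKD1 fell by 0.42 with siRNA2 (SE 0.07, adjusted p = 0.000632). Its gain with siRNA1 was 0.23 (SE 0.07, adjusted p = 0.0395, edgeR's quasi-likelihood test), close to the threshold, and that call was lost under 9 of the 18 alternatives, among them the omission of siRNA1 replicate 2 or 3, siRNA2 replicate 1 or 2, or any NC replicate (adjusted p up to 0.162).

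RNF43 and ZNRF3 encode ubiquitin ligases that remove frizzled receptors from the surface. RNF43 rose by 0.31 with siRNA2 (SE 0.04, adjusted p = 9.17e-05, edgeR's quasi-likelihood test) and was at -0.02 with siRNA1 (adjusted p = 0.851). It shares 57.6% of its exon bases with AC004687.2 on the same strand and 20.3% with TSPOAP1-AS1 on the opposite strand, so its counts are uncertain. ZNRF3 was at 0.09 and 0.05 with SE of 0.07.

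**Figure D3:**
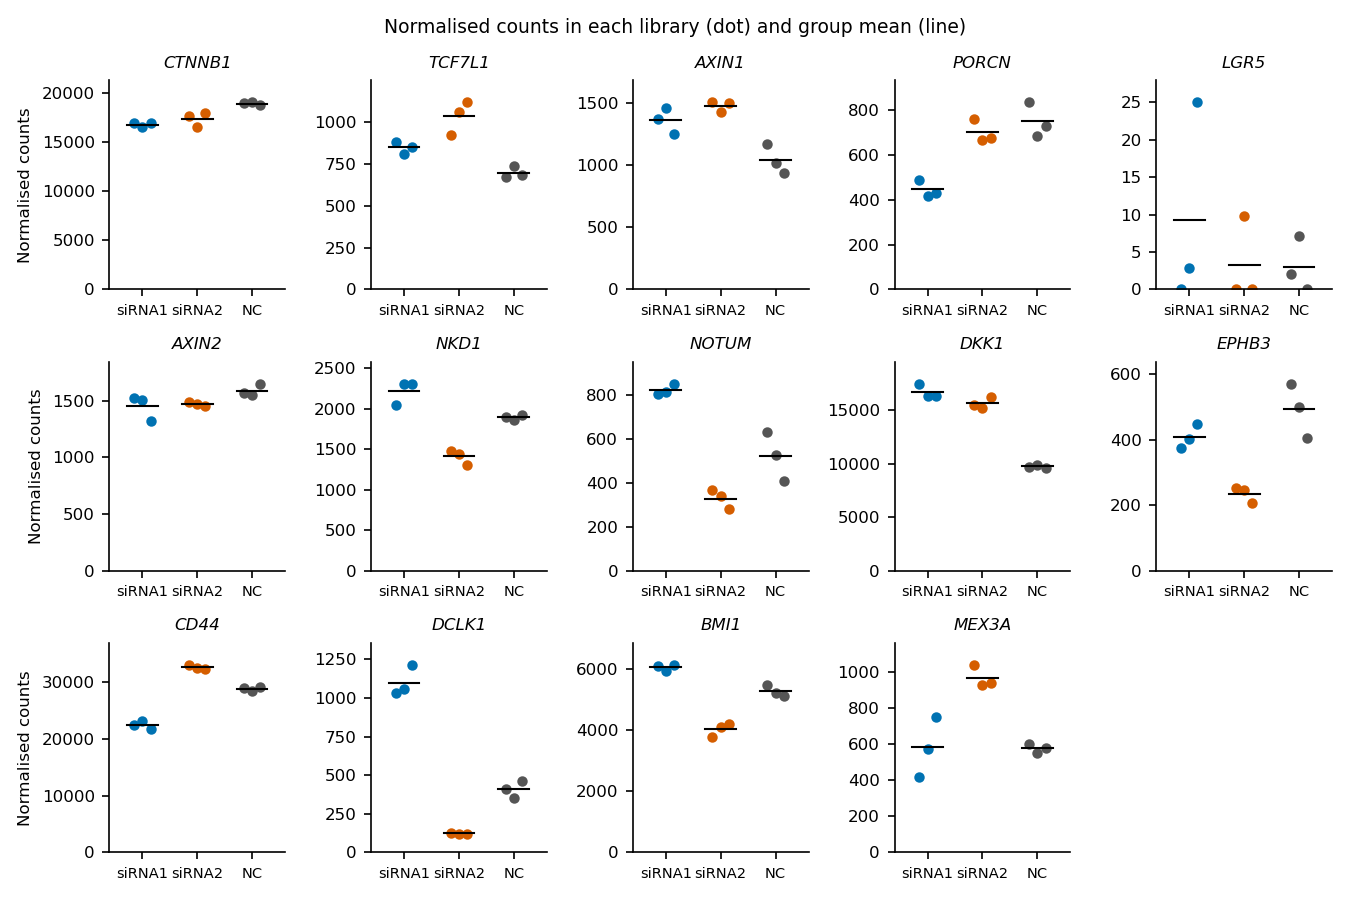
Normalised counts (vertical axes from 0) of 14 members in each library, as dots, with the group mean as a line, for siRNA1, siRNA2 and NC. In the DKK1 panel all 6 siRNA libraries lie above the 3 NC libraries, and in the NOTUM, NKD1, CD44, DCLK1 and BMI1 panels the NC libraries lie between those of the siRNAs.

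Among the other targets and stem cell markers, DCLK1 changed most, and in opposite directions with the 2 siRNAs. DCLK1 had 1032, 1056 and 1210.4 normalised counts with siRNA1 and 126, 122 and 122 with siRNA2, against 410.1, 353 and 464 in NC. The 3 groups were far apart and did not overlap. DCLK1 rose by 1.43 with siRNA1 (SE 0.13, adjusted p = 5.11e-06) and fell by 1.73 with siRNA2 (SE 0.14, adjusted p = 8.91e-07, edgeR's quasi-likelihood test). Which of its starts, including the internal one printed above, was in use cannot be read from counts per gene.

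CD44 had 22488, 23214 and 21725 normalised counts with siRNA1 and 32913, 32431 and 32358 with siRNA2, against 28949, 28443 and 29088 in NC. The groups did not overlap, and siRNA1 was lowest. CD44 fell by 0.36 with siRNA1 (SE 0.03, adjusted p = 2.94e-06) and rose by 0.18 with siRNA2 (SE 0.03, adjusted p = 0.00065, edgeR's quasi-likelihood test).

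BMI1, a Polycomb protein and marker of reserve stem cells in mouse intestine, had 6120, 5939 and 6127 normalised counts with siRNA1 and 3785, 4097 and 4213 with siRNA2, against 5472, 5223 and 5134 in NC. NC again lay between both siRNA groups. BMI1 rose by 0.20 with siRNA1 (SE 0.045, adjusted p = 0.00663) and fell by 0.39 with siRNA2 (SE 0.05, adjusted p = 3.15e-05, edgeR's quasi-likelihood test), and the siRNA1 call was lost without NC replicate 3 (adjusted p = 0.0501). The read-through gene COMMD3-BMI1 shares 23.3% of the BMI1 exon bases.

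EPHB3, a receptor that positions cells along the crypt, had 373, 401 and 448 normalised counts with siRNA1 and 253, 247 and 206 with siRNA2, against 570, 500.4 and 406 in NC. The siRNA2 libraries were lowest, while siRNA1 and NC overlapped. EPHB3 was lower with siRNA2 by a log2 change of -1.065 (SE 0.16, adjusted p = 0.000265, edgeR's quasi-likelihood test) and was at -0.27 with siRNA1 (SE 0.16, adjusted p = 0.279). Its relative EPHB2 was called higher with siRNA2 at 0.19 (SE 0.07, adjusted p = 0.0486), a call lost under 13 of the 18 alternatives, including the omission of any 1 of the 9 libraries (adjusted p up to 0.148).

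MEX3A, an RNA-binding protein of slowly dividing LGR5 cells in mouse intestine, had 419, 574.5 and 751 normalised counts with siRNA1 and 1035, 926.5 and 938 with siRNA2, against 599.8, 549 and 579 in NC. The siRNA1 libraries were spread widely around the NC values, and the siRNA2 libraries lay above both. MEX3A rose by 0.75 with siRNA2 (SE 0.17, adjusted p = 0.00435) and was at 0.01 with siRNA1 (SE 0.17, adjusted p = 0.974, edgeR's quasi-likelihood test).

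SOX9, a transcription factor of crypt progenitors, was at -0.05 with siRNA1 and -0.03 with siRNA2, with SE of 0.04, the narrowest errors among the members that passed in no comparison. PROM1 was at -0.26 and -0.10 (SE 0.12 each), and its siRNA1 value passed when only siRNA1 and NC were fitted and without siRNA2 replicate 2 (adjusted p 0.0432 to 0.292). MSI1, an RNA-binding protein of stem and progenitor cells, was at -0.08 and -0.14 (SE 0.085 each). SP5, with 106 normalised counts on average, was at 0.13 with siRNA1 and -0.52 with siRNA2, with SE of 0.31 and 0.32, so that a change of the size seen for NOTUM could not be resolved. TNFRSF19, at 27.7 normalised counts, was at -0.96 with siRNA1 and -0.21 with siRNA2, with SE of 0.57 and 0.56, and passed in neither comparison. Its siRNA1 value was the lowest among the tested members but was not resolved at this count.

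Because both siRNAs share the NC libraries, they were also compared directly. Of the 39 members, 8 were higher with siRNA1 than with siRNA2 and 11 were lower, against 15.1% higher and 14.3% lower over all genes tested. At a mean of at least 50 normalised counts the shares were 21.1% of members higher and 28.9% lower, against 20.1% and 19.5% of genes, so the share of higher members lay at the background. The higher members were FZD2, FZD7, DVL3, NKD1, NOTUM, EPHB3, DCLK1 and BMI1, and the lower ones were TCF7L1, GSK3B, FZD3, FZD4, PORCN, WLS, DVL1, DVL2, RNF43, CD44 and MEX3A. The direct difference for EPHB3 was 0.79 (SE 0.16, adjusted p = 0.0022) and for MEX3A -0.73 (SE 0.17, adjusted p = 0.00446, edgeR's quasi-likelihood test). FZD2, FZD4 and FZD7, which passed in neither comparison with NC, differed between the siRNAs by 0.49 (adjusted p = 0.00619), -0.43 (adjusted p = 0.0168) and 0.32 (adjusted p = 0.0174). For CTNNB1 the difference was -0.05 (SE 0.04, adjusted p = 0.319), for AXIN1 -0.12 (SE 0.09, adjusted p = 0.410) and for FZD5 -0.02 (SE 0.08, adjusted p = 0.894). The TCF7L1 call (-0.285, adjusted p = 0.0440) was lost under 9 alternatives, 5 of which left out a library (siRNA1 replicate 1, 2 or 3, or siRNA2 replicate 2 or 3). The GSK3B call (-0.13, adjusted p = 0.0261) was lost without siRNA1 replicate 1, without siRNA2 replicate 3 or without the filter on low counts, FZD4 without siRNA1 replicate 3 or siRNA2 replicate 3, and FZD7 without siRNA1 replicate 1, siRNA1 replicate 2 or siRNA2 replicate 2, with adjusted p of at most 0.0858, 0.0645 and 0.0661. LRP6 passed without siRNA1 replicate 2 (adjusted p 0.0414 to 0.628 over the alternatives) and PROM1 without siRNA2 replicate 2 (0.0379 to 0.796).

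A wider list of 160 genes outside the members had 148 with counts and 126 tested. It joined Wnt pathway and target genes with 18 genes of reserve and injury-associated stem cells, which are also described separately below. Of the 126, 27 were higher and 26 lower with siRNA1, and 34 were higher and 28 lower with siRNA2. These were 21.4% and 20.6% of the list with siRNA1, against 10.8% and 10.5% of all tested genes and 14.7% and 14.5% of those with a mean of at least 50 normalised counts. With siRNA2 they were 27% and 22.2% of the list, against 13.8% and 13.9% of all tested genes and 18.8% in either direction at that level. The median log2 change of the list was 0.06 with siRNA1 and 0.02 with siRNA2. The lists below are described beside the same shares over all genes, without a test of any list. Of 14 tested Wnt ligand genes, 2 rose with siRNA1 (14.3%), and 3 rose and 3 fell with siRNA2 (21.4% each). WNT9A rose by 1.91 with siRNA2 (SE 0.10, adjusted p = 1.71e-08, edgeR's quasi-likelihood test) and WNT16, the most abundant ligand RNA per kilobase of exon, by 1.16 (SE 0.05, adjusted p = 4.74e-09). They were at 0.22 (SE 0.10) and 0.11 (SE 0.05) with siRNA1 and did not pass. WNT3A rose by 1.24 with siRNA1 (SE 0.18, adjusted p = 0.000275) and was at 0.06 with siRNA2. WNT7B rose by 0.61 with siRNA1 (SE 0.10, adjusted p = 0.000597) and fell by 0.59 with siRNA2 (SE 0.10, adjusted p = 0.000574).

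**Figure D4:**
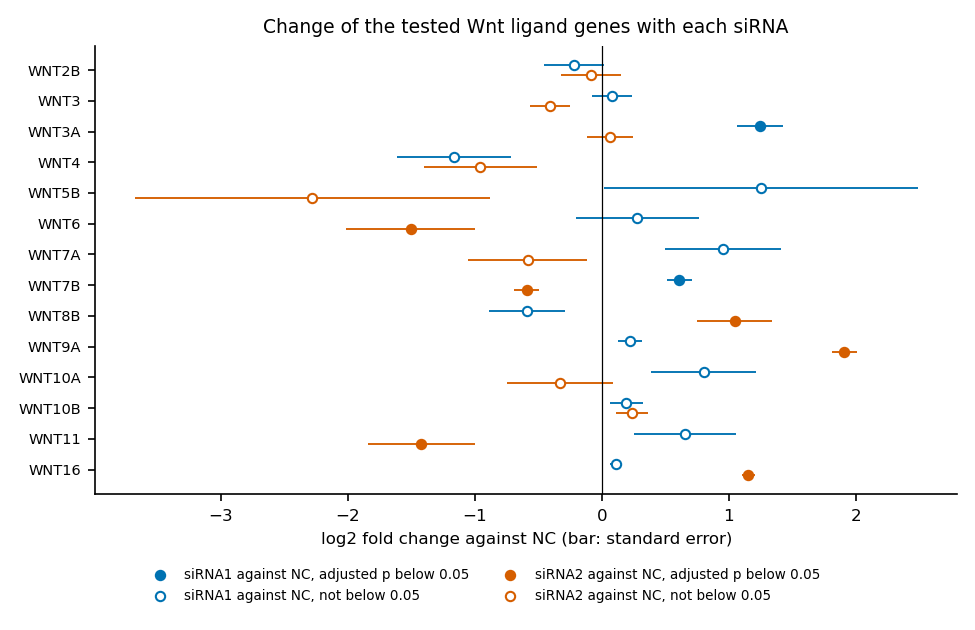
Log2 fold change (horizontal axis) of the 14 tested Wnt ligand genes with siRNA1 (blue) and siRNA2 (orange) against NC, with standard errors as bars and filled points for an adjusted p below 0.05 (n = 3 libraries per group). WNT9A and WNT16 lie at 1.91 and 1.16 with siRNA2, and WNT7B lies on opposite sides of 0 with the 2 siRNAs.

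Of 10 further receptors, co-receptors and R-spondins tested, 2 rose and 1 fell with siRNA1 (20% and 10%), and 1 rose and 1 fell with siRNA2 (10% each). KREMEN2, the DKK1 receptor that removes LRP6 from the surface, rose by 0.83 with siRNA1 (SE 0.11, adjusted p = 0.00017) and was at -0.16 with siRNA2 (edgeR's quasi-likelihood test). RYK, a Wnt receptor related to tyrosine kinases, fell by 0.39 with siRNA1 (SE 0.05, adjusted p = 4.85e-05) and rose by 0.22 with siRNA2 (SE 0.05, adjusted p = 0.00246). Among 29 cytoplasmic regulators, 3 rose and 9 fell with siRNA1 (10.3% and 31%, against 10.8% and 10.5% of all tested genes). With siRNA2, 7 rose and 8 fell (24.1% and 27.6%, against 13.8% and 13.9%). Genes with a mean of at least 50 normalised counts gave 14.7% and 14.5% with siRNA1, and 18.8% in either direction with siRNA2. PPP2CA, a catalytic subunit of protein phosphatase 2A, was lower with both, at -0.245 (SE 0.03, adjusted p = 0.000147) and -0.55 (SE 0.03, adjusted p = 8.83e-08). CSNK1G1, a kinase that phosphorylates LRP6, rose by 0.505 with siRNA2 (SE 0.04, adjusted p = 2.42e-06) and by 0.14 with siRNA1 (SE 0.04, adjusted p = 0.0407).

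Of 20 other Wnt target genes tested, 7 rose and 8 fell with siRNA1 (35% and 40%, against 10.8% and 10.5% of all tested genes). With siRNA2, 6 rose and 5 fell (30% and 25%, against 13.8% and 13.9%). Among genes with a mean of at least 50 normalised counts the shares were 14.7% and 14.5% with siRNA1, and 18.8% in either direction with siRNA2. MYC rose by 0.39 with siRNA1 (SE 0.03, adjusted p = 1.41e-06) and by 1.07 with siRNA2 (SE 0.03, adjusted p = 1.17e-10), whereas CCND1, the gene of cyclin D1, fell by 0.66 (SE 0.02, adjusted p = 1.97e-09) and by 0.25 (SE 0.02, adjusted p = 3.98e-06, edgeR's quasi-likelihood test). BMP4 rose by 0.55 with siRNA1 (SE 0.05, adjusted p = 3.11e-06) and was at 0.05 with siRNA2, and CYP24A1, which degrades vitamin D, fell by 0.99 with siRNA2 (SE 0.04, adjusted p = 3.94e-09) and rose by 0.23 with siRNA1 (SE 0.04, adjusted p = 0.00138). Of 22 nuclear cofactors tested, 4 rose and 4 fell with siRNA1 (18.2% each), and 7 rose and 2 fell with siRNA2 (31.8% and 9.09%). The corepressor gene CTBP2 was lower with both siRNAs, at -0.545 (SE 0.04, adjusted p = 1.79e-06) and -0.15 (SE 0.04, adjusted p = 0.0209), and the chromatin remodeller SMARCA4 was higher with both, at 0.23 (SE 0.03, adjusted p = 0.000215) and 0.35 (SE 0.03, adjusted p = 3.64e-06).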

How the data were processed

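Total RNA of HCT116 cells was sequenced, and the authors deposited whole-number read counts per gene, without normalisation. The submitters' processing notes name hg19, and the sources used here give no aligner, counter, annotation or strand setting. No source says whether the 3 libraries of a group were separate cultures, so the p-values reflect variation among these libraries, which may be technical. Counts were analysed in R 4.3.3 with edgeR 4.0.16: genes passing filterByExpr (minimum count 10, total 15; 21130 of 35817) were scaled by TMM and fitted in 1 quasi-likelihood model of 3 groups with 6 residual degrees of freedom. P-values were adjusted by Benjamini-Hochberg over all genes, with a threshold of 0.05. Exon lengths and overlaps came from GENCODE v29 by Ensembl ID (34766 matched), on another build than the counts. Alternatives were DESeq2 1.42.0, limma-voom (3.58.1), other scalings, filters and models, and omission of each library, 18 in all. Values per library are given for members with an absolute log2 change of at least 0.5 at the threshold and a mean of at least 50 normalised counts, and for CTNNB1, AXIN2 and LGR5. Of other pathway genes, those with the smallest adjusted p per list (up to 2 per direction) could be named. Members and lists were chosen with earlier results of these data known. The fit was tested on simulated data. Library depth was 51411860 to 57815092 counts.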

Additional observations from a re-analysis of the deposited data

Results flagged for a closer look

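For 5 members the change with siRNA1 and the change with siRNA2 went in opposite directions. Both changes and their difference had an adjusted p below 0.05 (edgeR's quasi-likelihood test, 3 libraries per group). The share of all tested genes with such opposite changes was not computed, so the count of 5 has no background to be read against. In the direct comparison, 15.1% of all tested genes were higher and 14.3% lower with siRNA1 than with siRNA2. Those shares follow a wider rule, which does not ask for opposite changes against NC. The log2 difference, siRNA1 minus siRNA2, was 3.15 for DCLK1 (SE 0.14, adjusted p = 3.86e-09). NOTUM differed by 1.32 (SE 0.16, adjusted p = 3.06e-05) and NKD1 by 0.65 (SE 0.07, adjusted p = 1.59e-05). BMI1 differed by 0.59 (SE 0.05, adjusted p = 6.39e-07). The gain with siRNA1 was less stable for 2 of these: the call was lost under 9 of the 18 alternatives for NKD1, and without NC replicate 3 for BMI1. CD44 differed in the other direction, by -0.535 (SE 0.03, adjusted p = 3.29e-08). LINC00857 itself differed by 0.09 between the siRNAs (SE 0.17, adjusted p = 0.783).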

How the results depend on the processing

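No log2 change of a tested member that passed the threshold changed sign under any of the 18 alternatives, whereas 37 of the 2106 recomputed values changed sign, each called in neither fit. With siRNA1 against NC, 9 of 13 calls held under all 18, with siRNA2 against NC 18 of 21, and with siRNA1 against siRNA2 15 of 19. The number of members higher with siRNA1 ranged from 4 to 7 when 1 library was left out, and stayed within 1.5 times its main value otherwise, as did the other counts. Replicate numbers did not pair the samples: in 9 same-numbered pairs the correlation of deviations was -0.034 to 0.001, and no sample correlated best with its own number. A replicate block gave 4481, 5800 and 6229 called genes, in the order of comparisons above, in place of 4491, 5853 and 6216. Of the members it called 6 higher and 6 lower, 11 higher and 10 lower, and 8 higher and 10 lower. SP5, TNFRSF19 and LGR5 had 106, 27.7 and 5.2 normalised counts on average. Over genes that passed the filter and a minimum count summed over the pair of libraries, the mean chi-square per gene between replicates of a group was 10.2 to 19.1. Counting noise alone gives about 1.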

Other observations

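Among 14 tested genes of reserve or injury-associated stem cells, 5 rose and 3 fell with siRNA1, and 7 rose and 4 fell with siRNA2 (edgeR's quasi-likelihood test). These were 35.7% and 21.4% with siRNA1, against 10.8% and 10.5% of all tested genes, and 50% and 28.6% with siRNA2, against 13.8% and 13.9%. At a mean of at least 50 normalised counts the background was 14.7% and 14.5% with siRNA1, and 18.8% in either direction with siRNA2. ANXA1, a marker of regenerating epithelium in mouse, rose by 0.26 with siRNA1 (SE 0.04, adjusted p = 0.000166) and by 0.81 with siRNA2 (SE 0.04, adjusted p = 6.16e-09). CLU, which marks revival stem cells in mouse intestine, rose by 0.23 with siRNA1 (SE 0.05, adjusted p = 0.00377) and fell by 0.83 with siRNA2 (SE 0.05, adjusted p = 7.31e-08). YAP1, a transcriptional coactivator of the Hippo pathway, fell by 0.19 with siRNA1 (SE 0.04, adjusted p = 0.00197) and rose by 0.33 with siRNA2 (SE 0.04, adjusted p = 1.61e-05). MSI2, an RNA-binding protein related to MSI1, was lower with both, at -0.21 (SE 0.04, adjusted p = 8e-04) and -0.20 (SE 0.04, adjusted p = 0.00084).

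In the planar polarity branch, which Wnt receptors share, 4 of 12 tested genes rose and 1 fell with siRNA1 (33.3% and 8.33%, against 10.8% and 10.5% of all tested genes). With siRNA2, 3 rose and 4 fell (25% and 33.3%, against 13.8% and 13.9%). The shares at a mean of at least 50 normalised counts were 14.7% and 14.5% with siRNA1, and 18.8% in either direction with siRNA2. CELSR2, an adhesion cadherin of that branch, rose by 0.25 with siRNA1 (SE 0.05, adjusted p = 0.00487) and fell by 0.52 with siRNA2 (SE 0.06, adjusted p = 1.17e-05). Its relative CELSR1 fell by 0.21 with siRNA1 (SE 0.07, adjusted p = 0.0368) and rose by 0.40 with siRNA2 (SE 0.07, adjusted p = 0.000451, edgeR's quasi-likelihood test). SCRIB, a scaffold of cell polarity, rose with both, by 0.15 (SE 0.03, adjusted p = 0.00344) and 0.28 (SE 0.03, adjusted p = 1.68e-05).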
